A study of Mus musculus with 6 samples.

Results

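Intronless protein-coding genes other than the histone genes were examined in embryonic stem cells of the mouse, with Mettl3 present or knocked out. They were the genes whose longest protein-coding transcript in GENCODE release M21 has 1 exon and spans at most 5000 bp, with histone symbols left out. They numbered 307 of the 12979 coding genes in the table. Their spans ran between 603 and 4997 bp, with a median of 2057 bp. The single exon is that of the longest coding transcript: 33 of the 307 genes also have a spliced transcript in the annotation (coding in 21 of them), and 274 have none. Another annotated gene overlaps 129 of them, on the same strand for 45, and values of these may include its reads, since strand use in counting is not given in the sources used here. Predicted gene models, with a Gm number or a Rik name, made up 69 of the 307.

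The samples were 6 mNET-seq libraries of C57BL/6 embryonic stem cells, 2 of a Mettl3 knockout named KO1, 2 of a knockout named KO2 and 2 of control cells. All groups were grown in serum medium with LIF, CHIR99021 (a GSK3 inhibitor) and PD0325901 (a MEK inhibitor). The labels say neither how the knockouts were made, nor whether KO1 and KO2 are single clones, nor whether the libraries of a group are separate cultures. A p-value here therefore weighs a change against the spread of these libraries alone, and that spread may be technical. The deposited value is an escaping index on the log2 scale, a ratio within each transcript that is higher where more of the signal lies downstream of the start. Since it is not an amount of RNA or of polymerase, cell type markers and the loss of Mettl3 cannot be checked with it, and read depth is unknown.

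RNA polymerase II starts at a promoter, often pauses shortly after it, and is then released into the gene body, and mNET-seq reads the short RNA that the polymerase holds. Intronless genes give transcripts that need no splicing. Some are old copies of spliced messages that were inserted back into the genome, and others, such as many immediate early, SOX and heat shock genes, respond fast or set cell identity from compact genes. Mettl3 is the enzyme of the complex that writes m6A on RNA, and the exon junction complex, which splicing leaves on messages, keeps m6A away from splice sites, so single-exon transcripts lack that protection.

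Promoters of 4 members are printed because the results turn on these genes: Nanos1 and Hnrnpa0, in which the index fell in both knockouts, and Jun and Rhob, in which it fell in KO2 and did not pass the test in KO1. They are from RefSeq, build GRCm38.p6, 250 bases before to 50 after the start, read 5′ to 3′ along the gene. Nanos1 is at chr19:60755737-60756036 on the plus strand, Hnrnpa0 at chr13:58128507-58128806, Jun at chr4:95052173-95052472 and Rhob at chr12:8499960-8500259, all 3 on the minus strand.
Nanos1: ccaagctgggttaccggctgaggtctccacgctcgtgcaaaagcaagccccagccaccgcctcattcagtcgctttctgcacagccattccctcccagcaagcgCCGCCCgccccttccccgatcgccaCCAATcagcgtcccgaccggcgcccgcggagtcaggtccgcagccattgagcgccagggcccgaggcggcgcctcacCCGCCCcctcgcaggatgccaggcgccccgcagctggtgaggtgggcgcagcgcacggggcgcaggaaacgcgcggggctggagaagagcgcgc
Hnrnpa0: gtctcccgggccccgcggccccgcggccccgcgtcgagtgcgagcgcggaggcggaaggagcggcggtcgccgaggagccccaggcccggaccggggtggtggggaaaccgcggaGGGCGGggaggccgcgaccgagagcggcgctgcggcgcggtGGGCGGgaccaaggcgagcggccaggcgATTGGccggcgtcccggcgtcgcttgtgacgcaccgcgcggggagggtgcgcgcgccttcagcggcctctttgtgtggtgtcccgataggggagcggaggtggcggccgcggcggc
Jun: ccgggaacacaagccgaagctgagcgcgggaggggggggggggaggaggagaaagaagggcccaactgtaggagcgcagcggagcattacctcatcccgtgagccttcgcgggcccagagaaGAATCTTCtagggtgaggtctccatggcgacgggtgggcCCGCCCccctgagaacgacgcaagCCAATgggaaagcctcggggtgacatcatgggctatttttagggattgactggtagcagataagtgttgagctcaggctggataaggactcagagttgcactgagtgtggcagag
Rhob: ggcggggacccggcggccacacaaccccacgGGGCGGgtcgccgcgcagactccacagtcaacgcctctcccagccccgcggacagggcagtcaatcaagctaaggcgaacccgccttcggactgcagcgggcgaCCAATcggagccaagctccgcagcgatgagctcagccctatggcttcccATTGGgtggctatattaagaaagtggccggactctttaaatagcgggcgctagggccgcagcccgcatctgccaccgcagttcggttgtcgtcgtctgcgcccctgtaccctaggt
Capitals mark matches on either strand to GGGCGG, the letters of a GC box, to CCAAT, the letters of a CCAAT box, and to GAANNTTC, a core of heat shock elements. No match overlaps another. Nanos1 and Hnrnpa0 each hold 2 GGGCGG matches and 1 CCAAT match, Rhob holds 1 and 2, and Jun holds 1 of each motif. These letters are common. Of 32851 RefSeq promoters of the same length, 35.7% hold GGGCGG, 37.4% hold CCAAT and 7.86% hold GAANNTTC. Among the 8297 promoters matched to coding genes examined here, the shares are 69.1%, 40.6% and 5.48%. A promoter within 100 bp of the annotated start was matched for only 160 of the 307 members, so a comparison of motif content over the members is void. A match is a description of the letters and not a binding site.

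The intronless genes had a low index, and in both knockouts it was lower still. Their median was 0.74 and 0.67 in the KO1 libraries, 0.39 and 0.56 in KO2, and 0.98 and 0.95 in control. As means of the 2 library medians these are 0.70 ± 0.049 in KO1, 0.47 ± 0.118 in KO2 and 0.96 ± 0.020 in control (SD, n = 2 each), or linear ratios of 1.63 in KO1, 1.39 in KO2 and 1.95 in control. All 4 knockout medians lay below both control medians. Multi-exon coding genes of at most 5000 bp, 1328 in number, had higher medians of 1.54 in both KO1 libraries, 1.37 and 1.32 in KO2, and 1.92 and 1.85 in control. Over all 12979 genes the means of the library medians were 4.42 in KO1, 4.24 in KO2 and 4.79 in control, in transcripts with longer spans at the median (22386 bp). In control cells 80 intronless genes (26.1%) had an index below 0, against 13.4% of the short multi-exon genes. How signal at the start and downstream compare at 0 depends on the windows of the index, which were not stated.

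**Figure D1:**
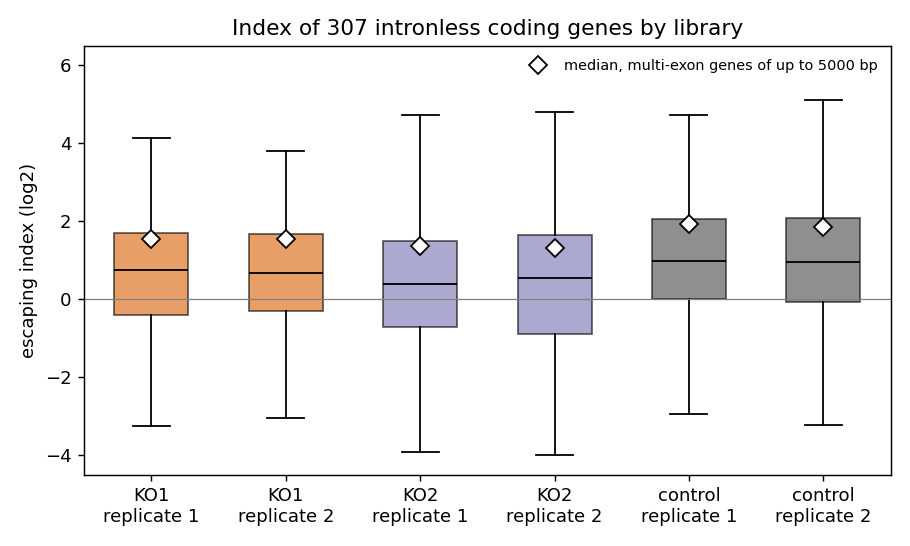
Escaping index (log2, vertical axis) of the 307 intronless genes in each of the 6 libraries, KO1, KO2 and control from left to right. Boxes span the quartiles with the median as a line, whiskers reach 1.5 interquartile ranges, and diamonds are the medians of the 1328 multi-exon genes of at most 5000 bp: the 4 knockout medians (0.39 to 0.74) lie below those of control (0.95 and 0.98), and every box median lies under its diamond.

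Relative to other genes, the fall of the intronless genes was near the background. The median change was -0.37 in KO1 against control, beside -0.35 in short multi-exon genes and -0.37 over all genes. In KO2 it was -0.70, beside -0.55 and -0.58. The difference was below 0 in 225 members (73.3%) in KO1, where it was so in 77% of all genes, and in 243 members (79.2%) in KO2, against 85.8%. The lower KO2 median depends on the offset inside the log. With 0.5 added to the ratio, the members' median was -0.42 in KO2 and -0.24 in KO1, and its difference from the short multi-exon genes was 0.022 in KO2, in place of -0.16. Centring each library on its own median moved the median change of all genes to 0.0064 in KO1 and -0.024 in KO2, and that of the members to 0.012 and -0.15.

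Replicates of intronless genes lay further apart than those of other genes. The median gap between 2 libraries of a group was 0.38, against 0.30 in short multi-exon genes and 0.26 over all genes, and the median standard error of the KO2 change was 0.32, against 0.27 and 0.24. A ratio of exactly 1 in at least 1 library occurred in 24 members (7.82%), in 3.01% of short multi-exon genes and in 0.647% of all genes.

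Index and span rose together among the members. In control the median index was -0.46 in the 26 members of up to 1000 bp, 0.52 in the next 122 of up to 2000 bp, 1.19 in 83 of up to 3000 bp, 1.59 in 44 of up to 4000 bp and 1.89 in 32 of up to 5000 bp. Multi-exon genes of the same bins (18, 199, 337, 366 and 408 genes) had -0.58, 0.74, 1.52, 2.19 and 2.74. Above 1000 bp the intronless genes were thus lower at equal span, by most in the longest bin. Across the 307 members, which share the 6 libraries, the control index and the log10 span had Pearson's r = 0.438 and Spearman's rho = 0.419, as a description. In KO2 the median change was -0.54, -0.64, -0.79, -0.90 and -0.70 in the 5 bins, below that of the multi-exon genes in each (-0.23, -0.50, -0.53, -0.58 and -0.59). In KO1 it was -0.31, -0.29, -0.49, -0.43 and -0.43, against 0.075, -0.18, -0.36, -0.37 and -0.42. These bins use the values as deposited. With 0.5 added to the ratio, the KO2 difference between the 2 classes over all bins was 0.022.

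**Figure D2:**
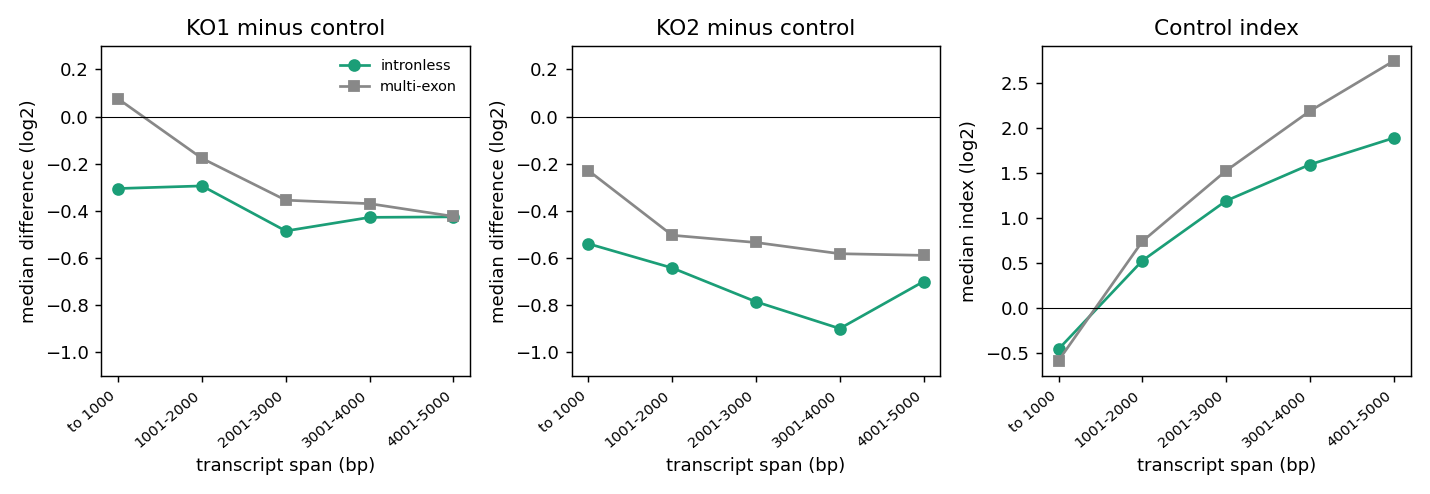
Median change (log2) in KO1 minus control (left) and KO2 minus control (centre), and median control index (log2, right), by transcript span in bins of 1000 bp, for intronless genes (circles) and multi-exon genes (squares) of at most 5000 bp. The control index climbs with span in both, to 1.89 and 2.74 in the longest bin, and in KO2 the circles lie below the squares in all 5 bins.

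In KO1, the index fell in 11 of the 307 genes and rose in 1, and the others did not pass (limma, adjusted p under 0.05 over all genes). The 12 calls are 3.91% of the members, under the 6.23% called over all genes (5.96% lower and 0.27% higher). Both KO1 libraries lay below both controls in 142 members (46.3%), against 53.3% of all genes. No member was called in KO1 without KO1 replicate 1 or 2, KO2 replicate 1 or 2, or control replicate 1 or 2, in fits with fewer samples, and the members' median stayed below 0 in these. The count was also 0 after median centring, which moved the members' median to 0.012, after quantile normalization, with a replicate block, with only the groups compared and with all genes tested. Over all genes no call was left in KO1 under these settings either.

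Gpr27, an orphan G protein-coupled receptor (chromosome 6, 99692679 to 99695066), had an index of 1.09 and 1.30 in KO1, 0.96 and 1.52 in KO2, and 3.24 in both control libraries. All knockout libraries lay below both controls, and the change was -2.04 ± 0.24 (SE) in KO1 (limma adjusted p = 0.0376) and -2.00 ± 0.24 in KO2 (adjusted p = 0.017). Nanos1, an RNA-binding repressor of translation (chromosome 19, 60755987 to 60759914), had 1.74 and 1.78 in KO1, 1.86 and 1.81 in KO2, and 3.16 and 3.28 in control. All 4 knockout libraries lay close together and under the controls, and Nanos1 changed by -1.46 ± 0.17 in KO1 and by -1.39 ± 0.17 in KO2, with limma adjusted p of 0.0376 and 0.017. Riox1, a ribosomal oxygenase and histone demethylase, had 1.43 and 1.65 in KO1, 1.60 and 2.03 in KO2, and 3.00 and 3.04 in control. It fell by 1.48 ± 0.22 in KO1 and by 1.20 ± 0.22 in KO2.

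Hnrnpa0, an hnRNP protein that binds AU-rich messages (chromosome 13, 58125879 to 58128556), had 2.95 and 2.76 in KO1, 2.42 and 2.45 in KO2, and 3.72 and 3.78 in control. It fell in KO1 (-0.90 ± 0.17, limma adjusted p = 0.0457) and in KO2 (-1.32 ± 0.17, adjusted p = 0.017). Ccnq, a cyclin partner of Cdk10, was among the lowest of the called genes, with -2.16 and -2.82 in KO1, -2.91 and -2.59 in KO2, and -0.80 and -0.76 in control. Ado, a thiol dioxygenase and among the 3 members with the highest control mean, had 2.59 and 2.76 in KO1, 3.14 and 3.64 in KO2, and 4.27 and 5.10 in control. Inafm2 had 1.15 and 0.64 in KO1, 1.13 and 0.83 in KO2, and 2.30 and 2.23 in control. Lrrc10b had 2.15 and 1.13 in KO1, 2.06 and 1.81 in KO2, and 3.46 and 3.78 in control. In each of these genes all knockout libraries lay below both controls, and the index fell in both knockouts.

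The other 3 genes that fell in KO1 did not pass in KO2. Fzd2, a Wnt receptor, had 0.98 and 1.44 in KO1, 1.77 and 2.00 in KO2, and 2.53 and 3.25 in control, a change of -1.68 ± 0.31 in KO1 and of -1.01 ± 0.31 in KO2 (adjusted p = 0.0569). Rpl10-ps3, a copy of the ribosomal protein gene Rpl10, had 0.47 and 0.59 in KO1, 1.70 and 2.20 in KO2, and 2.05 and 3.13 in control. Its reads can be split with near-identical copies, so its value is uncertain. The predicted gene Gm10447 had -1.64 and -1.13 in KO1, -0.73 and -0.11 in KO2, and 0.81 and 0.23 in control. None of the 3 passed the test of KO1 against KO2 (limma adjusted p between 0.154 and 0.288).

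In KO2, the index fell in 89 of the 307 genes, rose in 3 and did not pass in the others. The 92 calls are 30% of the members, next to 29.6% over all genes (29% lower and 0.562% higher) and 24.6% of the short multi-exon genes. Both KO2 libraries lay below both controls in 183 members (59.6%), against 67% of all genes. The count of calls was 70 without either KO1 library, 29 without control replicate 1, and 0 without control replicate 2 or either KO2 library. It was also 0 after median centring, as it was over all genes.

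The deepest fall in KO2 was in Hps6, a subunit of the BLOC-2 complex of lysosome-related organelles, with 1.86 and 1.67 in KO1, 0.22 and 0.11 in KO2, and 3.52 and 2.51 in control. The change was -2.85 ± 0.35 (limma adjusted p = 0.017), and another gene overlaps it on the same strand. Haspin, the kinase of histone H3 in mitosis, had 1.78 and 1.93 in KO1, 1.16 and 1.28 in KO2, and 2.67 and 2.52 in control (KO2 change -1.37 ± 0.18). Ccdc71l had 0.74 and 0.59 in KO1, 0.35 and -0.09 in KO2, and 1.78 and 1.66 in control. In these 3 genes KO1 lay between KO2 and control in every library, and none passed in KO1. Sephs2, a selenophosphate synthetase, had -0.35 and -0.31 in KO1, -0.67 and -0.74 in KO2, and 0.65 and 0.41 in control.

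Among further falls in KO2, named after their values were seen, were those of Frat2, which binds GSK3 in Wnt signalling (-2.03), Nrarp, a feedback regulator of Notch signalling (-1.72), Insm1, a zinc finger factor of neuroendocrine cells (-1.61), and Rprm, a cell cycle inhibitor downstream of p53 (-1.61). Hexim1, which holds the elongation kinase P-TEFb inactive, had -0.62 and -0.61 in KO1, -1.09 and -1.23 in KO2, and -0.36 and -0.35 in control. Its fall in KO2 was 0.80 ± 0.19 (adjusted p = 0.0317), and in KO1 the change was -0.26 ± 0.19 (adjusted p = 0.389). Fancf, of the Fanconi anaemia repair complex (-1.02), and Cldn4, a tight junction protein (-0.80), fell as well.

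The 89 genes that fell in KO2 included 66 in which both KO1 libraries also lay below both controls (21.5% of the members, against 24.8% of all genes) and 23 in which they did not. The 23 are 7.49% of the members, where the same pattern made up 4.22% of all genes and 4.22% of the short multi-exon genes. They include Jun, Jund, Rhob, Hspa1a, Hspa1b, Rraga, Sox21 and the polyadenylation factor Cstf2t. No member passed the test of KO1 against KO2, in which 0% of all genes were called (smallest adjusted p among members 0.125). At an unadjusted p under 0.05, 57 members were higher and 16 lower in KO1 than in KO2 (18.6% and 5.21%, against 17% and 3.54% of all genes).

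The list of immediate early genes and their AP-1 and C/EBP relatives held 9 members. It was picked by symbol with earlier results of these data known, and can leave out genes of the same kind. In KO2 the index fell in 7 of the 9 and 2 did not pass, where 29% of all genes fell. The list median was -1.08, beside -0.58 over all genes. In KO1 none passed, where 6.23% of all genes were called, and the list median was -0.35, beside -0.37. Both comparisons share the control libraries. Jun, a subunit of AP-1 (chromosome 4, 95049034 to 95052222), had 1.02 and 0.70 in KO1, -0.17 and -0.26 in KO2, and 0.72 and 0.89 in control. KO2 lay below both other groups, which overlapped, with changes of -1.02 ± 0.21 in KO2 (limma adjusted p = 0.0236) and 0.06 ± 0.21 in KO1 (adjusted p = 0.864). Jund, another AP-1 subunit, had -0.94 and -0.58 in KO1, -1.97 and -2.03 in KO2, and -1.07 and -0.78 in control. Rhob, an immediate early small GTPase (chromosome 12, 8497661 to 8500009), had 1.43 and 1.23 in KO1, -0.02 and 0.10 in KO2, and 1.07 and 1.26 in control, a change of -1.13 ± 0.19 in KO2 and of 0.17 ± 0.19 in KO1. The difference between KO1 and KO2 was 1.08 ± 0.21 for Jun, 1.24 ± 0.24 for Jund and 1.29 ± 0.19 for Rhob, and it did not pass (adjusted p = 0.125 for each).

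The other members of that list had lower values in KO1 too, except Ier2. Junb had -0.77 and -0.51 in KO1, -1.16 and -1.22 in KO2, and -0.27 and -0.25 in control, and it fell in KO2 (-0.93 ± 0.20). Ier5l fell by 1.13 ± 0.21 in KO2, with -1.71 and -1.62 in KO1, -1.90 and -1.74 in KO2, and -0.80 and -0.59 in control. Ier5, which binds heat shock factor, had -2.08 and -1.65 in KO1, -2.46 and -2.14 in KO2, and -1.22 and -1.03 in control, and it fell in KO2 (-1.18 ± 0.26). Cebpd, a C/EBP factor, fell by 1.55 ± 0.31 in KO2. Ier2 (-0.46 ± 0.19 in KO2) and Cebpb (-0.15 ± 0.22 in KO2) did not pass, and both turn positive in KO2 after median centring, at 0.098 and 0.40. After the same centring Jun was at -0.46, Jund at -0.52, Rhob at -0.57 and Junb at -0.38.

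The list of heat shock genes held 3 members. Hspa1a, an inducible Hsp70, had 1.13 and 1.26 in KO1, 0.0023 and 0.022 in KO2, and 1.55 and 0.88 in control. Hspa1b, its near-identical neighbour on chromosome 17, had 1.18 and 0.92 in KO1, -0.30 and 0.26 in KO2, and 0.98 and 1.10 in control. In both genes KO2 lay under all other libraries while KO1 overlapped control, and the change was -1.20 ± 0.27 and -1.06 ± 0.26 in KO2, against -0.02 and 0.01 in KO1. Reads can be split between the 2 copies, so each value is uncertain, and Hspa1a was at a ratio of exactly 1 in 1 KO2 library. Dnajc30, a mitochondrial J-domain protein, had 0.71 and 0.69 in KO1, 1.47 and 1.26 in KO2, and 1.00 and 1.50 in control, and it passed in neither knockout.

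**Figure D3:**
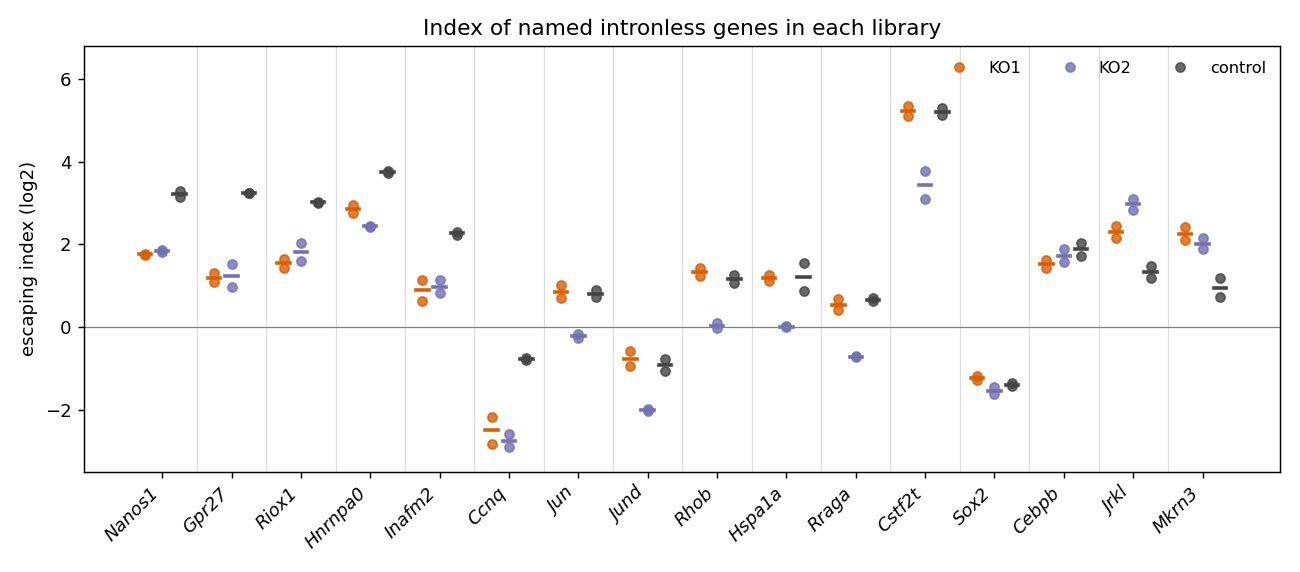
Escaping index (log2, vertical axis) of 16 named intronless genes in each library, with KO1 (left), KO2 (centre) and control (right) within each gene and the group mean as a bar. Nanos1, Gpr27, Riox1, Hnrnpa0, Inafm2 and Ccnq lie below control in both knockouts, Jun, Jund, Rhob, Hspa1a, Rraga and Cstf2t lie below control in KO2 while KO1 overlaps control, and Jrkl and Mkrn3 lie above control in both.

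SOX and forkhead factors set cell identity. Of 5 SOX genes, 2 fell in KO2, where 29% of all genes fell. None passed in KO1, where 6.23% of all genes were called, and the medians were -0.39 in KO1 and -0.53 in KO2. Sox2, a core pluripotency factor (chromosome 3, 34650405 to 34652461), had -1.18 and -1.27 in KO1, -1.61 and -1.46 in KO2, and -1.35 and -1.43 in control. Its changes of 0.17 ± 0.20 and -0.14 ± 0.20 did not pass (limma adjusted p = 0.596 and 0.608), the KO2 change turns to 0.42 after centring, and another gene overlaps it on the same strand. Sox3 had -0.63 and -0.90 in KO1, -1.07 and -0.97 in KO2, and -0.03 and 0.0035 in control, and it fell in KO2 (-1.01 ± 0.20). Its value in control replicate 2 is a ratio of exactly 1, so this fall is uncertain. Sox21 had 1.34 and 1.49 in KO1, 0.56 and 0.31 in KO2, and 1.21 and 1.32 in control, and it fell in KO2 (-0.83 ± 0.19). Sox12 and Sox4 did not pass. Sox12 had the second highest control mean of the members, with 4.05 and 4.98 in KO1, 4.73 and 4.80 in KO2, and 5.88 and 4.51 in control.

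Of 3 forkhead genes, 1 was called in KO2 and none in KO1, where 29.6% and 6.23% of all genes were called. Foxc2, a mesoderm factor, fell in KO2 (-2.01 ± 0.49), with -0.995 and -0.41 in KO1, -2.31 and -1.38 in KO2, and 0.68 and -0.36 in control. Foxd3, needed for pluripotent cells, had 2.30 and 1.82 in KO1, 1.82 and 2.65 in KO2, and 2.45 and 2.38 in control, and did not pass. Foxl2 did not pass either. None of the 7 POU, bHLH, homeobox and related members passed in either knockout, beside the same shares of all genes. Their median was -0.32 in KO1 and -0.86 in KO2. Olig3, a bHLH factor of the nervous system, had 1.14 and -0.34 in KO1, 0.52 and -0.58 in KO2, and 1.32 and 1.88 in control (-1.63 ± 0.60 in KO2). Its relative Olig1 had 2.08 and 1.50 in KO1, 0.91 and 1.00 in KO2, and 1.45 and 2.19 in control. Atoh7, a bHLH factor of the retina, had 2.49 and 2.81 in KO1, 1.15 and 2.12 in KO2, and 2.59 and 3.36 in control. KO1 overlapped control in both. The zinc finger list was made from symbols and leaves out others such as Insm1, which is in no role list. Of its 2 members, Zfp830 fell in KO2 (-0.86 ± 0.21) and Zfp36, an mRNA decay factor, did not pass (-0.87 ± 0.30). The list of protocadherins had no member.

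The list of G protein-coupled receptors was made from symbols, so receptors with other symbols can be missing from it. It held 18 members, and their changes were spread widely, between -2.04 and 1.07 in KO1 and between -2.00 and 1.50 in KO2. In KO1, 2 fell and 16 did not pass, where 5.96% of all genes fell. In KO2, 4 fell and 14 did not pass, where 29% of all genes fell. The list median was -0.27 in KO1, beside -0.37 over all genes, and -0.15 in KO2, beside -0.58. Frizzled genes, the Wnt receptors, made up 5 of the 18, and those beyond Fzd1 and Fzd2 are named after their values were seen. Fzd1 had 1.21 and 1.07 in KO1, 0.61 and 0.80 in KO2, and 1.64 and 2.07 in control, and it fell in KO2 (-1.15 ± 0.22). Fzd10 had 2.14 and 1.34 in KO1, 0.44 and 0.30 in KO2, and 1.42 and 1.61 in control, and it fell in KO2 (-1.15 ± 0.30), while KO1 overlapped control. Fzd7 (-0.10 ± 0.25 in KO2) and Fzd9 (-0.79 ± 0.32 in KO2) did not pass. Chrm4, a muscarinic receptor, had 1.59 and 1.93 in KO1, 3.95 and 2.32 in KO2, and 1.88 and 1.39 in control, and did not pass (1.50 ± 0.54, adjusted p = 0.0828). Ffar1, a fatty acid receptor, had 1.52 and 2.17 in KO1, 2.00 and 1.12 in KO2, and 0.85 and 0.70 in control, and did not pass either.

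The list of ubiquitin ligase parts held 13 members. In KO1 1 rose and 12 did not pass, where 0.27% of all genes rose and 5.96% fell. In KO2 3 fell, 1 rose and 9 did not pass, a share near the 29.6% called over all genes. The medians were -0.48 in KO1 and -0.70 in KO2. The genes that fell in KO2, named because they passed, were Trim52 (-1.16 ± 0.20), Rnf26 (-0.82 ± 0.19) and Kbtbd7, a substrate adaptor of cullin 3 (-0.70 ± 0.18). Kbtbd7 had 0.50 and 0.36 in KO1, 0.39 and 0.38 in KO2, and 1.13 and 1.05 in control, so both knockouts lay clear of control. Mkrn3, an imprinted RING ligase (chromosome 7, 62417593 to 62420139), had 2.10 and 2.43 in KO1, 2.14 and 1.89 in KO2, and 1.18 and 0.72 in control. It was the gene that rose in KO1 (1.31 ± 0.25, adjusted p = 0.0457) and it rose in KO2 (1.07 ± 0.25, adjusted p = 0.0299), and another gene overlaps it on the same strand.

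The imprinted neighbours of Mkrn3 were looked at after its value was seen. Magel2, which lies next to it on chromosome 7, had -0.62 and -0.31 in KO1, -0.24 and -0.35 in KO2, and -0.33 and -0.36 in control, and passed in neither knockout (0.05 ± 0.21 in KO2). Peg12 had 1.95 and 1.91 in KO1, 1.20 and 1.80 in KO2, and 2.01 and 2.75 in control, and did not pass. The imprinted gene copies Mcts2 (-1.25 ± 0.26) and Zrsr1 (-1.12) fell in KO2. Both are copies of spliced genes, so reads can be split with the source gene, and 4 of the 5 imprinted members named here overlap another gene.

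The list of RNA, ribosome and tRNA factors held 11 members. In KO1 2 fell (Hnrnpa0 and Rpl10-ps3) and 9 did not pass, where 5.96% of all genes fell. In KO2 4 fell and 7 did not pass, where 29% of all genes fell. The medians were -0.63 in KO1 and -0.78 in KO2. Besides Hnrnpa0, the 4 were, named because they passed, Rbm8a2 (-1.56), Rbmxl2 (-0.86) and Utp3, of the small ribosomal subunit processome (-0.78). Kti12, a partner of the Elongator complex, had -0.87 and -0.92 in KO1, -0.94 and -0.83 in KO2, and 0.32 and -0.40 in control, and did not pass (-0.84 ± 0.29 in KO2, adjusted p = 0.072). Cstf2t, a testis paralog of the polyadenylation factor Cstf2 that is in none of the role lists, had 5.10 and 5.35 in KO1, 3.76 and 3.09 in KO2, and 5.14 and 5.29 in control. It had the highest control mean, and it fell in KO2 (-1.79 ± 0.27) with 0.01 ± 0.27 in KO1. Rpp25, a subunit of RNase P, had -0.18 and -0.31 in KO1, -1.35 and -1.29 in KO2, and -0.06 and 0.11 in control. Rraga, a GTPase that brings mTORC1 to lysosomes, had 0.41 and 0.67 in KO1, -0.70 and -0.72 in KO2, and 0.64 and 0.69 in control. The difference between KO1 and KO2 was 1.80 ± 0.27 for Cstf2t, 1.08 ± 0.20 for Rpp25 and 1.25 ± 0.19 for Rraga, again with an adjusted p of 0.125.

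**Figure D4:**
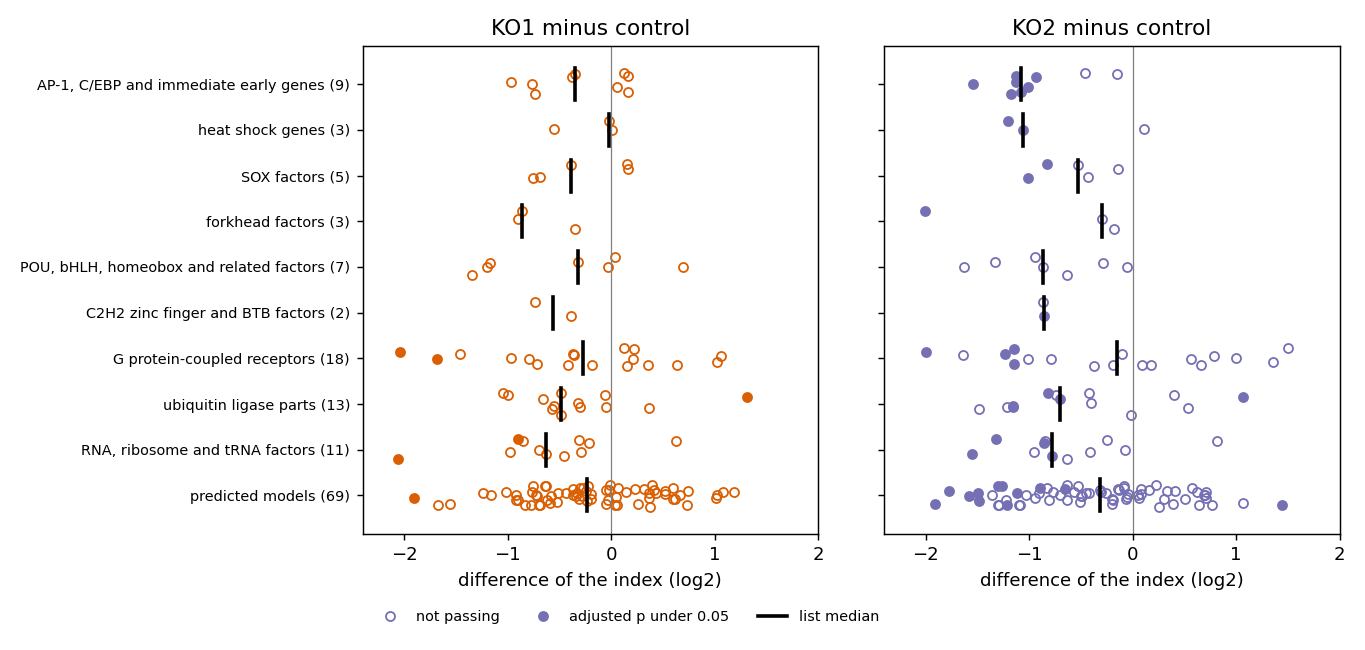
Change of the index (log2, horizontal axis) in KO1 minus control (left) and KO2 minus control (right) for the members of each role list, with the number of members in brackets. Filled points passed the test (adjusted p under 0.05), open points did not, and bars are list medians. In KO2, 7 of the 9 genes in the AP-1, C/EBP and immediate early list are filled on the low side, and in KO1 none is. Lists were made from symbols, with earlier results known.

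The 69 predicted models had fewer calls than the rest. In KO2 11 fell and 1 rose, 17.4% of them, against 33.6% of the 238 members with another symbol. Over all genes 29.6% were called. The median changes of the predicted models and of the 238 were -0.32 and -0.80. The predicted models had a median span of 1331 bp, against 2332.5 bp. Their replicates were further apart, with a median gap of 0.46 against 0.36. The part of span and spread in this was not tested. Examples that fell in KO2 were 0610012G03Rik (-1.22 ± 0.26) and Gm12184 (-1.26 ± 0.26). The 167 members in no list had medians of -0.41 in KO1 and -0.80 in KO2. Of these, 6 fell in KO1, where 5.96% of all genes fell. In KO2 54 fell and 1 rose, where 29% of all genes fell and 0.562% rose.

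Few members rose. In KO2 they were Jrkl, Mkrn3 and Gm9008, 0.977% of the members, where 0.562% of all genes rose. Jrkl, a protein related to a transposase (chromosome 9, 13242607 to 13245829), had 2.14 and 2.45 in KO1, 2.83 and 3.10 in KO2, and 1.20 and 1.47 in control. Every knockout library lay above both controls, and the change was 1.63 ± 0.22 in KO2 (limma adjusted p = 0.017) and 0.96 ± 0.22 in KO1 (adjusted p = 0.0557). Gm9008 had 2.42 and 1.72 in KO1, 3.78 and 3.17 in KO2, and 2.36 and 1.71 in control, so KO1 lay with control. With both knockouts averaged, 58 members fell and 3 rose, 19.9% of the members. Over all genes 26.5% were called, 26% lower and 0.578% higher. The members that rose were Jrkl, Mkrn3 and Gm15013. Gm15013, on the X chromosome, had 0.17 and -0.26 in KO1, -0.44 and -0.77 in KO2, and -1.47 and -0.99 in control. Among the next members by p, B130006D01Rik (0.71 ± 0.22 in KO2, limma adjusted p = 0.0576) did not pass. Gm32802 had 2.77 and 2.87 in KO1, 3.03 and 2.56 in KO2, and 2.38 and 2.07 in control, and did not pass with both knockouts averaged (limma adjusted p = 0.0784).

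Opposite positions in the 2 knockouts were rare among the members. KO1 lay above and KO2 below both controls in 3, which were Sox2, Sox21 and, named after its value was seen, Magee2 (0.977%), against 2.74% of all genes, and the reverse held in 1 (0.326%), Gm43951, against 0.678%. Members that were lower in KO1 than in KO2, with none passing, included Sowahb, with 1.18 and 1.34 in KO1, 2.17 and 1.90 in KO2, and 2.15 and 2.00 in control. The difference between KO1 and KO2 was -0.77 ± 0.19 (adjusted p = 0.144). B3gnt9, a glycosyltransferase, had 0.28 and 0.53 in KO1, 1.24 and 2.24 in KO2, and 1.47 and 1.17 in control, and the difference was -1.33 ± 0.36 (adjusted p = 0.151).

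At the ends of the control range stood Cstf2t, Sox12 and Ado at the top, and Olfr166 and Gm5447 were among the lowest. Olfr166, an olfactory receptor, had -3.27 and -1.58 in KO1, -2.09 in both KO2 libraries, and -3.68 and -3.21 in control. Gm5447 had -2.96 and -2.95 in KO1, -3.18 in both KO2 libraries, and -2.92 and -2.44 in control. Mocs3, a sulfurtransferase of molybdenum cofactor synthesis, had 2.83 and 3.38 in KO1, 3.01 and 2.57 in KO2, and 2.98 and 2.09 in control, and did not pass.

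The span limit of 5000 bp is a bound of the rule, and values on both sides of it are given as a description. Just inside it were Cenpb (4886 bp), Prob1 (4888 bp) and Gpr137c (4997 bp). Cenpb, a centromere protein, had 3.11 in both KO1 libraries, 3.85 and 2.96 in KO2, and 4.29 and 3.70 in control. Prob1 had 1.82 and 1.80 in KO1, 1.09 and 1.33 in KO2, and 1.74 and 2.08 in control. Gpr137c had 0.39 and 0.42 in KO1, 1.04 and 0.22 in KO2, and 1.54 and 2.19 in control. Just outside it were Zbed6 (5007 bp), Foxd1 (5064 bp) and Galnt4 (5089 bp). Zbed6 had 0.35 and 0.53 in KO1, 0.53 and 0.65 in KO2, and 0.46 and 0.47 in control. Foxd1 had 0.42 and 0.34 in KO1, 0.88 and -0.32 in KO2, and 1.59 and 2.35 in control. Galnt4 had 0.42 and 0.52 in KO1, 1.13 and 0.85 in KO2, and 1.80 and 1.09 in control. Values differed widely within each side. The 21 intronless genes over the limit had a median change of -0.43 in KO1 and -0.46 in KO2. The 35 intronless histone genes left out by the rule had 0.081 in KO1 and -0.64 in KO2.

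What the members share beyond the rule was described from their transcripts, all 307 of which were matched. Their GC content had a median of 53.2%, against 55.1% in short multi-exon genes and 50.7% over all genes. GGACT, 1 form of the m6A site, occurred 1.09 times per 1000 bases at the median, against 1.16 and 1.05, and it was absent in 12.1% of members, in 22.3% of short multi-exon genes and in 9.86% of all genes. The 31 members with 6 or more GGACT had a median KO2 change of -0.72, and the 37 with none had -0.52, but their median lengths were 3250 and 1445 bp. Per 1000 bases, GGACT and the KO2 change had r = -0.014 across the members, and r = 0.011 in KO1. A poly(A) signal (AATAAA or ATTAAA in the last 50 bases) was found in 69.7% of members, 73.1% of short multi-exon genes, 75.5% of all genes and 42.9% of the intronless histone genes. Of the 214 members with it 33.2% fell in KO2, with a median of -0.78, and of the 93 without it 19.4% fell, with a median of -0.52, where 29% of all genes fell. The median lengths of these sets were 2328.5 bp and 1751 bp, and the part of length in this was not tested.

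The X chromosome held 21 members (6.84%), against 3.27% of all genes. Their median change in KO2 was -0.98, beside -0.61 for all 425 X-linked genes, and 5 of the 21 fell, against 114 of the 425 and 29% of all genes. In KO1 it was -0.30, beside -0.27, and none passed, where 3.76% of all X-linked genes and 6.23% of all genes were called. Members that overlap no other gene (178) had medians of -0.36 in KO1 and -0.74 in KO2, and the 129 that overlap one had -0.37 and -0.66. In KO2 31.5% and 27.9% of them were called, beside 29.6% of all genes.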

How the data were processed

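Chromatin was cut with micrococcal nuclease, RNA polymerase II was pulled down and gel-selected short RNA was made into libraries, per the labels' protocols. The submitters' processing notes name CASAVA, Trimmomatic 0.38, HISAT2 2.1.0, featureCounts and mm10, while the windows of the index and the use of strand were not stated. The authors deposited log2 values of the index for 68473 transcripts, of which 68397 matched GENCODE identifiers. In each library a small offset had been added to a ratio before log2, so they were tested as deposited, with no further pseudocount. Depth per library is unknown, so no counting interval is given.

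The longest coding transcript (by span) stood for each of 12979 genes. A single limma 3.58.1 model (R 4.3.3) covered the 3 groups (1 mean per group, variance trend, two-sided, 3 residual degrees of freedom plus a prior of 2.684), with Benjamini-Hochberg adjustment over all genes. The fit was tested on simulated data, drawn for the 12979 genes with normal, independent spread. Only a small random set of genes was shifted down in each run, and the runs were summed. In KO1 it recovered 48.6% of changes of 2 and 2.6% of changes of 1, with 9 of 265 calls false. For KO2 these were 50.4%, 3.2% and 9 of 277, and for both knockouts averaged 62.8%, 20.8% and 17 of 435. In the real data most genes moved down (85.8% were below 0 in KO2), which changes the adjusted p. These rates are therefore not those of the calls reported above.

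The members, the 11 role lists and the tests were chosen with earlier results of these data known. Role lists were made from gene symbols, so each can leave out members of the same kind. Genes named by rule were, per contrast, up to 10 called members per direction with the smallest p and non-overlapping libraries (values only up to 5 where fewer passed), 3 per role list, a set of always-named genes, the 3 highest and lowest in control, and 3 on each side of the span limit, 67 members in all, of which 31 overlap another gene. A gene that the rule names is not reported here. Others are marked as chosen after their values were seen. Of the always-named genes, 2 are no members. Figures and summaries used Python 3.11.15, pandas 2.3.3 and numpy 2.4.6. Motifs other than TATAAA were added to the planned description later.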

Additional observations from a re-analysis of the deposited data

How the results depend on the processing

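The number of calls changed with the scaling of the libraries and with the libraries kept. After median centring or quantile normalization the calls among members were 0 in both knockouts and 0 in their average. The calls over all genes were then 0 as well. The members' median change was 0.0118, -0.1477 and -0.0563 after centring and -0.0165, -0.0895 and -0.0279 after quantile normalization. With 0.5 added to the ratio the medians were -0.2422, -0.4157 and -0.34, and the differences from short multi-exon genes reversed to 0.0259, 0.0222 and 0.0177. A larger offset shrinks changes of low ratios, and its part in this reversal was not tested. With all genes tested (1 transcript each), calls numbered 0 (KO1), 56 (KO2) and 32 (average), and with transcripts averaged 0, 34 and 25, with a difference of -0.1835 in the average. Of the 17349 genes tested, 0, 3066 and 2620 were called with 1 transcript each, and 0, 1225 and 1038 with transcripts averaged. Among members overlapping no gene, fewer by construction, 56 were called in KO2 and 37 in the average. With only the groups compared, 0 were called in KO1 and 28 in the average, beside 0 and 1878 of all 12979 genes. Leaving out 1 library gave 0 calls in KO1, between 0 and 70 in KO2 and between 0 and 25 for the average, and the KO1 difference from short multi-exon genes ran between -0.0433 and 0.0093, reversing to 0.0093 without control replicate 2 and 0.003 without KO1 replicate 1, from fits with fewer samples. Replicate numbers did not pair the libraries (correlations of deviations 0.0014, -0.0091 and 0.0072). With a replicate block the calls were 0 in KO1, 70 in KO2 and 46 for the average, beside 0, 2921 and 2494 of all 12979 genes. In KO2, 10 named genes reversed after centring: Cebpb 0.4043, Foxd3 0.3791, Foxl2 0.2637, Gm5447 0.057, Gm7324 0.492, Ier2 0.0983, Sowahb 0.5152, Sox12 0.1259, Sox2 0.4159 and Sox4 0.031. After quantile normalization 10 did: Cebpb 0.4204, Foxd3 0.3859, Foxl2 0.2997, Gm5447 0.1132, Gm7324 0.5699, Ier2 0.1829, Sowahb 0.5221, Sox12 0.1234, Sox2 0.595 and Sox4 0.0709. Leaving out 1 library also reversed the KO2 change of Sowahb (-0.1758 to 0.0937), Sox12 (-1.1177 to 0.257), Cebpb (-0.3127 to 0.0087), Foxd3 (-0.5945 to 0.2401), Foxl2 (-1.0288 to 0.4437), Gm7324 (-0.2519 to 0.1234), Dnajc30 (-0.14 to 0.3622), Mocs3 (-0.1866 to 0.6971), B3gnt9 (-0.0836 to 0.9149) and Gm6169 (-0.3556 to 1.1278). None of these genes passed the test in KO2. The cause of the other moves was not tested either. Without depth, low ratios cannot be given a counting error.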
